A study of Mus musculus with 10 samples.

Results

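J-domain cochaperones, also called Hsp40 proteins, are the partners that bring client proteins to Hsp70. The 8 genes described here are the cytosolic and nuclear members Dnaja1, Dnaja2, Dnaja4, Dnajb1, Dnajb2, Dnajb4, Dnajb5 and Dnajb6, taken with every probe set annotated to them. They have 23 of the 45037 probe sets that are not array controls, and they are 8 of the 18193 genes with a probe set of 1 symbol. All 8 were among the 10915 genes tested. The study heated mouse embryonic fibroblast (MEF) lines mildly and measured their RNA on Affymetrix arrays, with 1 array per sample. One line is labelled MEF(-/-), an Hsp70 knockout (KO), and the other MEF(+/+), called a rescue. The preshocked cells were grown for 20 hours, then kept in a 43 °C bath for 30 minutes, with harvest 3 hours after it. The unheated cells were harvested at 23 hours. There were 3 preshocked and 3 unheated arrays of the KO-labelled line and 2 preshocked and 2 unheated arrays of the rescue-labelled line. Each sample pooled the lysates of 144 wells, and nothing in the labels tells if replicates came from separate cultures. The p-values therefore measure only the spread between these samples. How Hsp70 was restored in the rescue-labelled line, and whether either line is 1 clone, was not given in the sources used here.

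A J domain holds a short His-Pro-Asp motif that makes Hsp70 hydrolyse its ATP and close on a client, so a J-domain protein decides where and when Hsp70 works. Class A members (Dnaja1, Dnaja2, Dnaja4) carry a zinc-finger region between the J domain and the substrate-binding part, as bacterial DnaJ does. Class B members (Dnajb1, Dnajb2, Dnajb4, Dnajb5, Dnajb6) lack it. Some of the genes are targets of heat shock factor 1, which binds inverted repeats of the letters GAA and TTC, and others are transcribed without stress. Affymetrix probe sets report a brightness of their own, so levels are compared here only within a probe set.

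Start-site windows are shown for the 3 genes with the largest changes after the preshock, and for Dnajb6, whose window holds the longest match. The windows are from RefSeq on GRCm38.p6 and run from 250 bases before an annotated start to 50 bases from it. All 8 genes matched, with 17 windows. Both strands were searched for the paired units GAANNTTC and TTCNNGAA, which are their own reverse complements, and for triples, in which a pair is followed at the same spacing by a further inverted unit so that it overlaps a pair of the other kind. Capitals mark a pair or a triple. A match is a description of letters, not a site of binding. The Dnajb1 window is chr8:83607925-83608224 on the plus strand, the Dnaja4 window chr9:54699309-54699608 on the plus strand, the Dnajb4 window chr3:152193796-152194095 on the minus strand and the Dnajb6 window chr5:29735648-29735947 on the plus strand.
Dnajb1: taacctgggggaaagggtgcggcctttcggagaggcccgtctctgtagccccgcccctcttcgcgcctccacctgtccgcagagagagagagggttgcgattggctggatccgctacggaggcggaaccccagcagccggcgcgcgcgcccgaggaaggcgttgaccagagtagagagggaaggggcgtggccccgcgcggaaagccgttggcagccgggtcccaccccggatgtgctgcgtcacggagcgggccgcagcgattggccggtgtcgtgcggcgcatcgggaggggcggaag
Dnaja4: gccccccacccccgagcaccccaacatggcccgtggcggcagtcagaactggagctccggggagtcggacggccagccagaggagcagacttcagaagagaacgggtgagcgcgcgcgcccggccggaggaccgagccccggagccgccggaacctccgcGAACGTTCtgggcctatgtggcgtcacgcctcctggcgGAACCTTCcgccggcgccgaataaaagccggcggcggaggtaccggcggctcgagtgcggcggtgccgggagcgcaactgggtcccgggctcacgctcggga
Dnajb4: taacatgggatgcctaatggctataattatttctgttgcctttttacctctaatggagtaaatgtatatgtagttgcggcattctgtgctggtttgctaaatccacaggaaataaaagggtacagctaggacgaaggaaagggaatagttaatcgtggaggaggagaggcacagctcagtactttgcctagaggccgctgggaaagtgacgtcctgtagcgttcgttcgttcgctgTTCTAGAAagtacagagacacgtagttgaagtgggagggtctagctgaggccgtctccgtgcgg
Dnajb6: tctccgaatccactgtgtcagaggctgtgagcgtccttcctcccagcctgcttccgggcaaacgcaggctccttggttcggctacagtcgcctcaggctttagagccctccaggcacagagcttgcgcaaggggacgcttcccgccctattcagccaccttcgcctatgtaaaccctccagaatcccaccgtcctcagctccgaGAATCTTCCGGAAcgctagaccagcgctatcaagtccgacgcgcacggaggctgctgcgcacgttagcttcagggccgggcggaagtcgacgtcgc
A pair was present in at least 1 window of 4 of the 8 genes (Dnaja1, Dnaja4, Dnajb4 and Dnajb6), against 17.0% of the 27025 genes with a window. The members have more windows per gene than most, and by window the count was 5 of 17 against 15.1% of 32851. The windows of Dnajb6 overlap and hold the same match, which was counted in each. The triple was present in Dnajb6 alone among the 8, against 0.662% of genes. Dnaja4 had pairs whose first bases lay at -90 and -52 from the start, Dnajb4 had a pair at -14, and Dnaja1 had a pair at -124. The triple of Dnajb6 began at -46 from the start shown and at -127 from its other annotated start. The other windows of Dnaja4 and Dnajb4 held no pair. Neither window of Dnajb1 held a pair, which says only that these letters are not in those windows. CCAAT, read on both strands, was present in 3 of the 8 genes (Dnaja1, Dnajb1 and Dnajb5), against 41.1% of genes.

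The arrays and labels were checked before the members. Hspa1b, which encodes the heat-inducible Hsp70, read 63.2 to 106.5 in deposited intensity units on the unheated KO-labelled arrays and 16853 to 29562 on the preshocked ones (probe set 1427126_at). The rescue-labelled arrays read 196.2 to 262.1 unheated and 29210 to 36889 preshocked. The Hspa1b signal therefore rose in the line labelled as an Hsp70 knockout. On 1452318_a_at, the brightest Hspa1b probe set and the one tested, the change in that line was 6.81 ± 0.37 (log2, SE, adjusted p = 2.49e-04, limma). Whether the Hspa1b probe sets lie in a deleted part of the gene was not given in the sources used here. Any direction between the lines rests on the labels, and whether they are right was not tested. On 1427126_at all unheated KO-labelled values lay below the unheated rescue-labelled ones. The same held on 1427127_x_at, at 110.5 to 160.8 in the KO-labelled and 318.3 to 390 in the rescue-labelled line. On 1452318_a_at the unheated ranges overlapped, at 211.7 to 476.7 in the KO-labelled and 464.7 to 675 in the rescue-labelled line. The only probe set of Hspa1a, its near-identical neighbour, stayed between 3.5 and 25.8 in all groups. The KO-labelled arrays numbered 5 (preshocked) and 6 (unheated) stood apart, with median intensities of 100.4 and 107.0 against 50.7 to 73.7 on the other 8, although every array had been scaled to the same trimmed mean. Of the fibroblast markers, 9 of 10 were among the genes tested, with Vim at 15.02 to 15.28 on the log2 scale. So were 3 of 5 macrophage and leukocyte markers (Cd14 at 8.49 to 9.5) and 2 of 5 epithelial markers (Epcam at 4.48 to 8.71). Of the endothelial markers, 1 of 4 was tested (Kdr at 3.46 to 7.5). Being tested means only that a gene passed the filter on dim genes, so these counts do not show which cell types were present. Of the muscle markers, 2 of 4 were tested, and Acta1 was lower in the rescue-labelled line, at -1.41 unheated (adjusted p = 0.0346, limma) and -1.60 preshocked (adjusted p = 0.0335, limma). Neither Acta1 difference passed with the array pairs as a block (adjusted p = 0.117 and 0.0833). The other, Myod1, was not called, at -0.70 unheated (adjusted p = 0.654, limma) and 0.20 preshocked (adjusted p = 0.908, limma). The part of these markers in differences between the lines was not tested.

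Dnajb1, Dnajb4 and Dnaja4 rose after the preshock, and the other 5 genes did not pass the test. Values were compared on a log2 scale after quantile normalization with limma, and a gene was called at a Benjamini-Hochberg adjusted p under 0.05 over all 10915 genes. In the KO-labelled line 3 of the 8 genes were called higher (Dnajb1, Dnajb4 and Dnaja4), against 0.944% of all genes called higher, and none was called lower, against 0.825%. In the rescue-labelled line 2 of the 8 were called higher (Dnajb1 and Dnajb4), against 0.275%, and none lower, against 0.0825%. In the mean response of both lines, which weights the lines equally, the same 3 genes as in the KO-labelled line were called higher, against 1.84%, and none lower, against 2.57%. With the adjoining array numbers as a block, Dnaja1 and Dnajb6 joined them and 5 of 8 were called higher, against 5.87% of all genes in that fit. The median change of the 8 genes was 0.58 in the KO-labelled, 0.41 in the rescue-labelled and 0.50 in the mean response, beside -0.04, -0.03 and -0.04 for all genes. Because RNA of pooled cells was measured, more cells that transcribe a gene and more RNA per cell cannot be told apart. Without the arrays numbered 5 and 6, 3 genes were called in each single line and in the mean response. Over all genes that fit called 75, 64 and 233 higher and 60, 24 and 339 lower in the KO-labelled, rescue-labelled and mean responses.

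**Figure D1:**
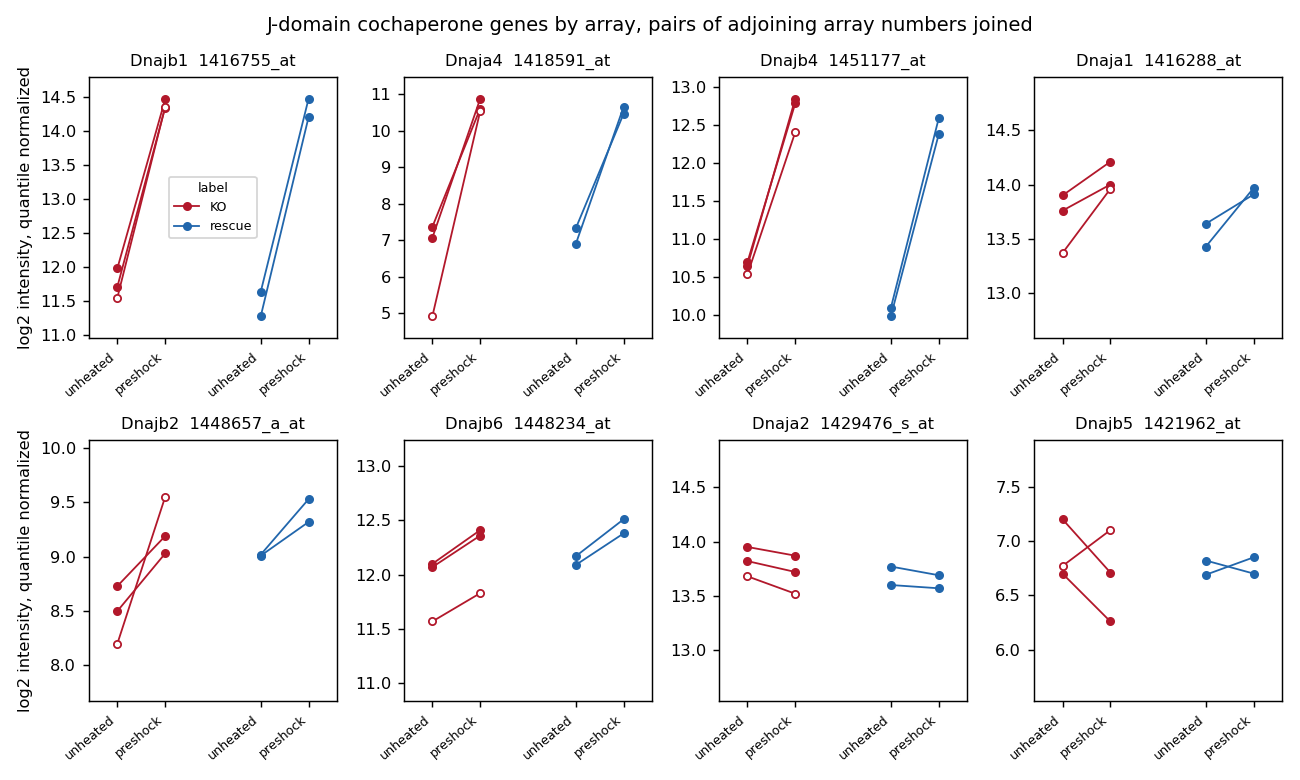
Each panel shows the tested probe set of 1 gene, with quantile-normalized log2 intensity on the vertical axis and unheated and preshocked arrays of the KO-labelled and rescue-labelled lines on the horizontal axis. Points are single arrays, lines join adjoining array numbers, and open points are the arrays numbered 5 and 6. Every line of Dnajb1, Dnajb4 and Dnaja4 climbs steeply, by 1.87 to 5.62, while the lines of Dnaja2 stay within 0.16 of level.

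Dnajb1 is the best-known heat-inducible class B cochaperone and works with Hsp70 and Hsp110 on aggregated proteins. Values below are deposited intensities, listed by rising array number (6, 12 and 14 for unheated and 5, 11 and 13 for preshocked KO-labelled arrays, 32 and 44 for unheated and 31 and 43 for preshocked rescue-labelled arrays). Probe set 1416755_at read 2805, 3294 and 4158 on the unheated and 14990, 20832 and 30899 on the preshocked KO-labelled arrays. The rescue-labelled arrays read 3261 and 2521 unheated and 29034 and 18969 preshocked. The lowest preshocked value was more than 3 times the highest unheated value of either line, so the groups did not overlap. Group means were 3419 ± 685 (SD, n = 3) and 22240 ± 8048 (SD, n = 3) in the KO-labelled line and 2891 ± 524 (SD, n = 2) and 24001 ± 7117 (SD, n = 2) in the rescue-labelled line. The fitted change was 2.64 ± 0.16 (log2, SE) in the KO-labelled line, or 6.23-fold (adjusted p = 4.69e-04, limma). In the rescue-labelled line it was 2.87 ± 0.20, or 7.32-fold (adjusted p = 0.00185, limma), and that call ended when arrays were centred on their medians instead, with a change of 3.05 (adjusted p = 0.150). The mean response ranked 11 from the top of 10915 genes. The second probe set, 1416756_at, gave a like result, with 1982 to 2702 on all unheated and 13599 to 18544 on all preshocked arrays. It changed by 2.76 ± 0.21 in the KO-labelled line and by 2.75 ± 0.26 in the rescue-labelled line.

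Dnajb4 is a close class B relative of Dnajb1. Its brightest probe set, 1451177_at, read 1459, 1598 and 1653 on the unheated and 4992, 7608 and 7861 on the preshocked KO-labelled arrays. On the rescue-labelled arrays it read 1100 and 1065 unheated and 6644 and 5341 preshocked. All 5 preshocked arrays stood well above all 5 unheated ones, with the smallest rise, 1.87, between the arrays numbered 5 and 6. The fitted change was 2.06 ± 0.15, or 4.16-fold, in the KO-labelled line (adjusted p = 7.40e-04, limma) and 2.44 ± 0.19, or 5.42-fold, in the rescue-labelled line (adjusted p = 0.00253, limma). Centring the arrays on their medians ended both calls, with changes of 2.18 and 2.47 (adjusted p = 0.0628 and 0.174). Probe set 1431734_a_at rose alongside, from 323.0 to 691.1 on all unheated arrays to 1986 to 3541 on all preshocked arrays, with a mean response of 2.60 ± 0.31 (adjusted p = 0.0339 over all probe sets, limma). The third probe set, 1439524_at, did not follow: it read 35.2 to 66.5 on 8 arrays and 206.3 and 190.3 on the arrays numbered 5 and 6, with a mean response of 0.26 ± 0.45 (adjusted p = 0.982, limma). Averaging the 3 probe sets lowered the mean response of the gene from 2.25 to 1.70, and the call held.

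Dnaja4, a class A cochaperone, had the largest change of the 8 genes, starting from low signals. Probe set 1418591_at read 51.6, 147.1 and 148.5 on the unheated and 1474, 1888 and 1524 on the preshocked KO-labelled arrays. Values of the rescue-labelled line were 104.7 and 156.4 unheated and 1598 and 1454 preshocked. The preshocked values lay close together across both lines, whereas among the unheated values that of the array numbered 6 was the lowest, at 51.6 against 104.7 to 156.4 on the others. The fitted change in the KO-labelled line was 4.22 ± 0.55, or 18.7-fold (adjusted p = 0.0111, limma). In the rescue-labelled line a change of 3.45 ± 0.68, or 10.9-fold, did not pass (adjusted p = 0.104, limma). The mean response was 3.84 ± 0.44 (adjusted p = 0.00329, limma) and ranked 7 from the top. Without the arrays numbered 5 and 6 the SE shrank and both lines passed, at 3.64 ± 0.22 (adjusted p = 0.00420) and 3.57 (adjusted p = 0.00357). Without the array numbered 6 alone the rescue-labelled change was 3.51 (adjusted p = 0.00162), and without the preshocked array numbered 11 the KO-labelled change was 4.12 (adjusted p = 0.0585). With no filter on dim genes the KO-labelled change stayed at 4.22 and did not pass (adjusted p = 0.0563).

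The other probe sets of Dnaja4 showed the same direction. Probe set 1418592_at read 36.5 to 89.9 on the 5 unheated arrays and 492.1 to 1036 on the 5 preshocked arrays, with a mean response of 3.52 ± 0.40 (adjusted p = 0.0296 over all probe sets, limma). Probe set 1434196_at read 38.2, 6.8 and 1.8 on the unheated KO-labelled arrays and 57.2 and 61.6 on the unheated rescue-labelled arrays, against 376.4 to 841.8 on all preshocked arrays. Its change of 6.64 ± 0.81 in the KO-labelled line rested on unheated signals near the floor of 1, and its size there is uncertain. The difference of responses for this probe set was -3.45 ± 1.28 (adjusted p = 1.0, limma).

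**Figure D2:**
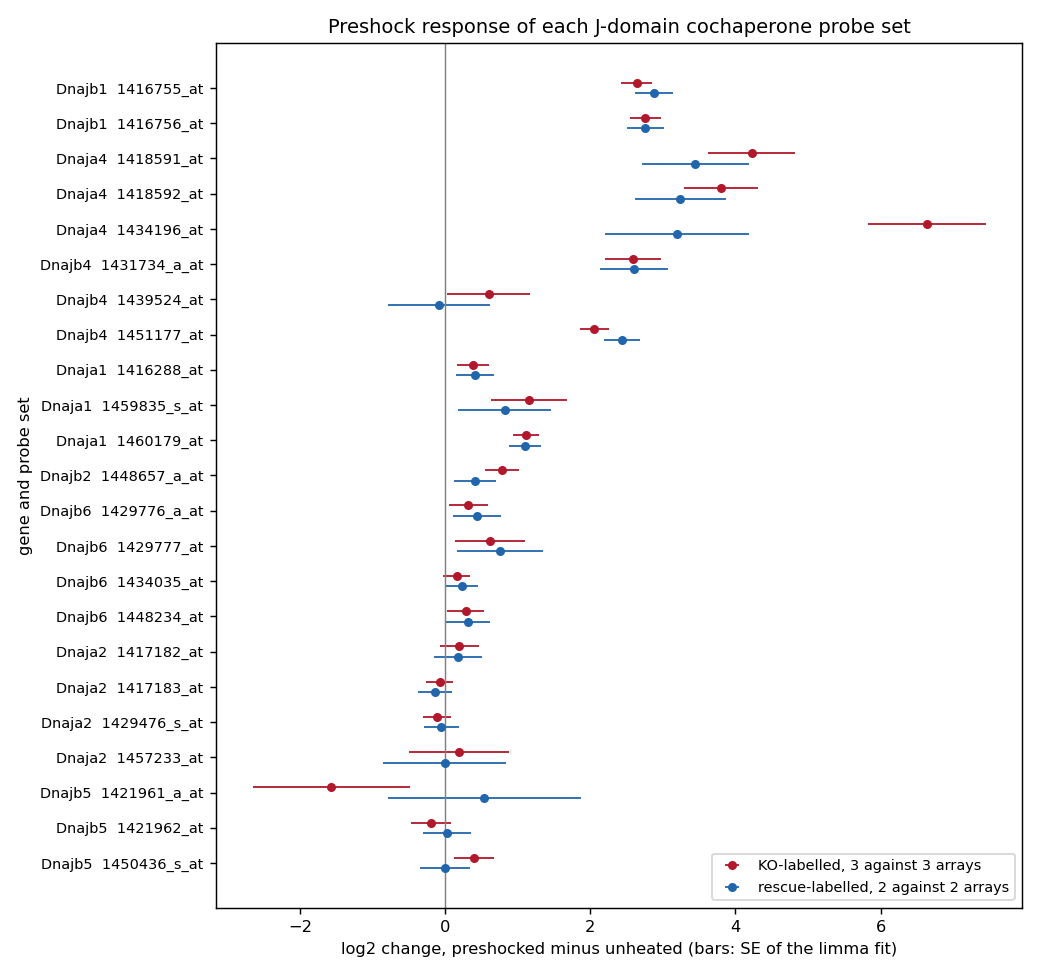
The log2 change from unheated to preshocked arrays is plotted for each of the 23 probe sets on the horizontal axis, with genes and probe sets on the vertical axis. Points are limma estimates for the KO-labelled line (3 against 3 arrays) and the rescue-labelled line (2 against 2 arrays), and bars are their SE. Both Dnajb1 probe sets lie between 2.64 and 2.87, and the Dnaja4 probe sets lie between 3.19 and 6.64.

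The probe sets were also tested singly, over all 45037. In the KO-labelled line 3 of the 23 were called higher (both of Dnajb1 and 1451177_at of Dnajb4), against 0.0511% of all probe sets. In the rescue-labelled line 2 were called (both of Dnajb1), against 0.0222%. In the mean response 8 were called (3 of Dnaja4, 2 of Dnajb1, 2 of Dnajb4 and 1 of Dnaja1), against 0.202%. With the array pairs as a block limma called none of the 23 in these responses, and none of the 45037 probe sets, although 12, 10 and 14 of the 23 had an unadjusted p under 0.05, against 12.4%, 10.2% and 15.4% of all probe sets. Without the arrays numbered 5 and 6 the counts were 1, 0 and 7, and with any 1 of the 10 arrays left out they were 0 to 4, 0 and 2 to 7. In the KO-labelled line none was called without the array numbered 5, 11, 12 or 13, in the rescue-labelled line none whichever array was left out, and in the mean response 4 or fewer without any array other than that numbered 6. Median centring of the arrays left none of the 23 called. For these alternatives, other than the block, the share over all probe sets was not counted.

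Dnaja1, a farnesylated class A protein that is abundant in unstressed cells, gave different sizes on its 3 probe sets. Probe set 1416288_at, the brightest and the one tested, read 8557, 13866 and 15194 on the unheated and 12567, 19126 and 20146 on the preshocked KO-labelled arrays. The rescue-labelled arrays read 13647 and 10596 unheated and 19163 and 16532 preshocked. Each pair of adjoining numbers was higher after the preshock, by 0.24 to 0.59. The mean response of 0.40 ± 0.13, or 1.31-fold, did not pass (adjusted p = 0.154, limma), and it passed with the array pairs as a block (adjusted p = 0.0388). Probe set 1460179_at read 3138, 3773 and 3952 on the unheated and 7446, 7652 and 9047 on the preshocked KO-labelled arrays, and 2969 and 2837 against 6578 and 6481 in the rescue-labelled line. Its groups were tight and did not overlap, and its mean response of 1.11 ± 0.14 passed over all probe sets (adjusted p = 0.0395, limma). Probe set 1459835_s_at had a similar mean response, 0.99 ± 0.41, but a wide spread (adjusted p = 0.556, limma). With the 3 probe sets averaged the mean response of the gene was 0.83 (adjusted p = 0.0352, limma), so whether Dnaja1 is called depends on the probe set.

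Dnajb2, known from neurons and carrying ubiquitin-interacting motifs, has a single probe set. It read 350.2, 382.0 and 408.4 on the unheated and 776.8, 504.7 and 521.4 on the preshocked KO-labelled arrays. On the rescue-labelled arrays it read 515.5 and 555.0 unheated and 688.2 and 649.0 preshocked. Preshocked values were above unheated ones in each line, with the highest on the array numbered 5. A change of 0.78 ± 0.19 in the KO-labelled line (adjusted p = 0.0929, limma) and of 0.41 ± 0.23 in the rescue-labelled line (adjusted p = 0.753, limma) did not pass, nor did the mean response of 0.60 ± 0.15 (adjusted p = 0.0662, limma).

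Dnajb6, a class B protein that keeps polyglutamine proteins from aggregating, showed small differences in 1 direction. Probe set 1448234_at read 2844, 4309 and 4449 on the unheated and 3438, 5562 and 5742 on the preshocked KO-labelled arrays. Values of the rescue-labelled line were 4714 and 4270 unheated and 6278 and 5349 preshocked. The KO-labelled groups overlapped because the preshocked array numbered 5 read below the unheated arrays numbered 12 and 14. The arrays numbered 5 and 6 were both low, but the differences within pairs were nearly equal, from 0.26 to 0.34. The mean response of 0.30 ± 0.16, or 1.23-fold, did not pass (adjusted p = 0.430, limma), and it passed with the array pairs as a block (adjusted p = 0.0206). The 4 probe sets had mean responses of 0.19 to 0.68, and each was higher in all 5 pairs, by as little as 0.03 on 1434035_at. None of the 4 was called in the mean response over all probe sets. How many of all probe sets were higher in all 5 pairs was not counted.

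Dnaja2 and Dnajb5 showed no such pattern. Dnaja2 is the constitutive class A cochaperone, and its tested probe set 1429476_s_at read 10434, 13237 and 17796 on the unheated and 9904, 13726 and 18238 on the preshocked KO-labelled arrays. The rescue-labelled arrays read 15258 and 12087 unheated and 16043 and 12236 preshocked. Each pair gave nearly the same value on its unheated and its preshocked array, whereas pairs differed from one another. The mean response was -0.08 ± 0.11, with an interval of -0.34 to 0.18 at 95% (adjusted p = 0.861, limma), and its sign turned to 0.07 with arrays centred on their medians. Across the 4 Dnaja2 probe sets the mean response lay between -0.11 and 0.19, and none was higher in all 5 pairs. Dnajb5, a class B relative of Dnajb1, was dim: probe set 1421962_at read 66.5 to 181.7 over the 10 arrays, and 1421961_a_at 1.4 to 43.7. The third, 1450436_s_at, read 58.2 to 125.3. On 1421962_at, the one tested, the mean response was -0.09 ± 0.18, with an interval of -0.50 to 0.33 (adjusted p = 0.926, limma). Across the 3 Dnajb5 probe sets the mean response lay between -0.52 (1421961_a_at) and 0.20 (1450436_s_at), and none was higher in all 5 pairs.

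The responses of the lines were then set against each other. None of the 8 genes had a called difference of responses, against 0.0% of all genes, and none had an unadjusted p under 0.05 (limma), against 0.944% of all genes. With the array pairs as a block 1 gene, Dnajb4, had an unadjusted p under 0.05 (0.0423, limma), against 5% of all genes. It was not called in that fit (adjusted p = 0.911). For Dnajb1 the rescue-labelled response was larger by 0.23, with a 95% interval of -0.36 to 0.83, and for Dnajb4 by 0.38, with an interval of -0.17 to 0.93, although it turned to -0.0976 with the probe sets averaged. For Dnaja4 the difference was -0.77, with an interval of -2.78 to 1.23. The intervals of Dnajb1 and Dnajb4 are bounded by less than 1 log2 unit, whereas that of Dnaja4 spans differences of several-fold in either direction. None of the 23 probe sets was called either, against 0.00666%, and 1 had an unadjusted p under 0.05, against 3.33%.

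Between the lines in the same state, none of the 8 genes was called, unheated (against 0.421% of all genes) or preshocked (against 0.339%). Those shares rest on 46 and 37 calls, which fell to 5 without the array numbered 32 and to 0 without that numbered 31. Unadjusted p-values under 0.05 were found for 2 genes unheated and none preshocked (limma), against 12.9% and 14.1% of all genes. Unheated Dnajb4 had the smallest p of the 8, with all rescue-labelled values of 1451177_at below all KO-labelled ones. Its difference was -0.58 ± 0.17, with an interval of -0.97 to -0.19 (adjusted p = 0.227, limma), and turned to 0.0066 with arrays centred on their medians. That centring moved the median of all genes between the unheated lines by 0.523 and between the preshocked lines by 0.434. The other probe set of that gene with bright signals, 1431734_a_at, differed by 0.10 ± 0.43. Unheated Dnajb2 was higher in the rescue-labelled line by 0.54 ± 0.21 (adjusted p = 0.335, limma) without overlap. Of the 23 probe sets none was called, unheated (against 0.0266%) or preshocked (against 0.04%), with unadjusted p-values under 0.05 for 2 and none, against 7.94% and 7.81% of all probe sets.

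Over the 10 arrays, the genes whose normalized values most resembled those of Dnajb1 were Cpn1 (Pearson r = 0.995), Atf3 (0.993), Bag3 (0.991), Dnajb4 (0.988) and Saraf (0.986), out of 10914 genes. Dnaja4 itself was closest to Hspb1 (0.991), Atg12 (0.987), Dedd2 (0.983), Ccdc117 (0.979) and Rgs2 (0.975). Among the members, r with Dnajb1 was 0.949 for Dnaja4, 0.816 for Dnaja1, 0.755 for Dnajb2 and 0.553 for Dnajb6. It was -0.246 for Dnaja2 and -0.236 for Dnajb5. These are descriptions over arrays that share a preshock and a scaling, and a high r says that the same arrays were high.

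The other genes of the Hsp70 cycle were counted in the mean response, in which 1.84% of all genes were called higher and 2.57% lower. Of 19 other J-domain genes of the cytosol and nucleus, 12 were tested, and limma called none, with none at an unadjusted p under 0.05, against 17.3% of all genes. Their median change was -0.04, the same as that of all genes. All 11 J-domain genes of the endoplasmic reticulum were tested. Among them Dnajb9, a partner of the chaperone BiP, rose by 1.24 ± 0.21 (adjusted p = 0.0175, limma), and Dnajc16 fell, with a change of -0.95 ± 0.20 (adjusted p = 0.0370, limma). With the array pairs as a block, 2 of the 11 were called higher and 1 lower, against 5.87% and 11.5% of all genes. Of 7 mitochondrial J-domain genes 5 were tested, and limma called none, with 1 at an unadjusted p under 0.05. The block on array pairs called 2 of the 5 lower, against 11.5% of all genes called lower and 5.87% called higher in that fit. Among the Hsp70 and Hsp110 partners 9 of 12 were tested and 2 were called, Hspa1b at 6.20 ± 0.30 (adjusted p = 5.12e-05, limma) and Hsph1, which encodes the heat-inducible Hsp110, at 2.00 ± 0.16 (adjusted p = 5.70e-04, limma). With the block, 4 of the 9 were called higher and 1 lower. Of 12 nucleotide exchange factors and other cochaperones, all tested, Bag3 was called, at 1.67 ± 0.13 (adjusted p = 5.70e-04, limma), and with the block 2 of the 12 were called higher and 1 lower.

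**Figure D3:**
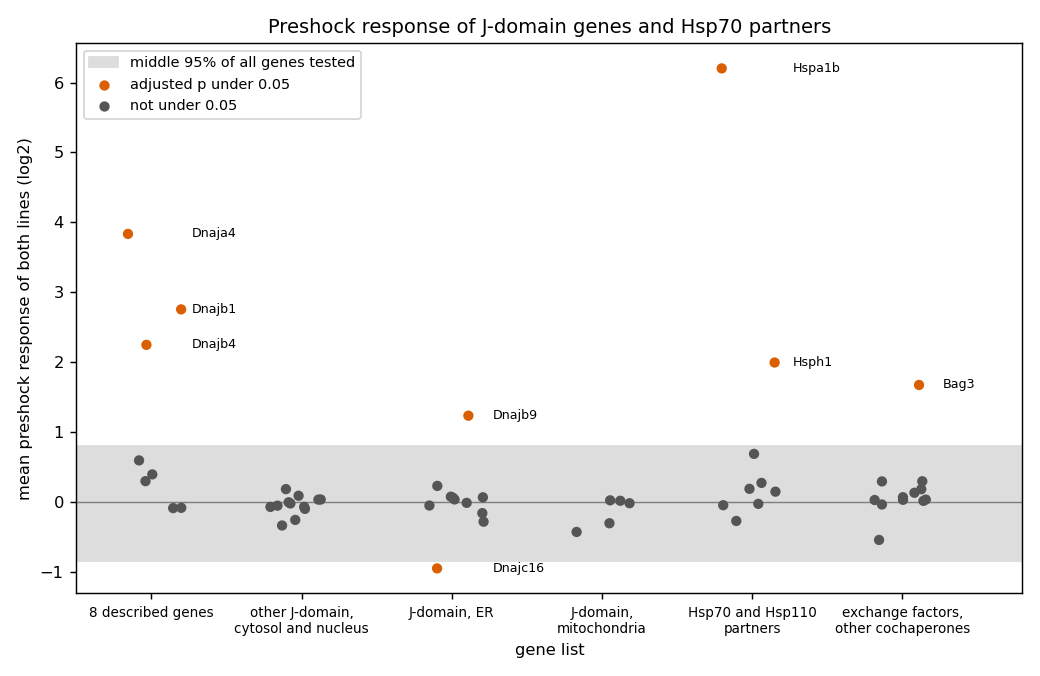
The mean preshock response of both lines (log2, vertical axis) is shown for each tested gene of the J-domain and Hsp70 partner lists (horizontal axis). Orange points passed an adjusted p under 0.05, grey points did not, and the grey band holds the middle 95% of all genes tested, from -0.84 to 0.81. Dnajb1, Dnajb4 and Dnaja4 lie far above the band, and the other cytosolic J-domain genes have a median of -0.04.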

How the data were processed

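RNA of 10 samples was measured on 1 Affymetrix mouse array each. The deposited values are linear intensities that the authors had scaled, since the mean of each array after trimming 2% at each end was the same; the software and version are not given in the sources used here, and neither are detection calls. Values below 1 (4935 in all) were set to 1, and log2 values were quantile normalized, because array medians differed by up to 1.08. Controls (64 probe sets) were dropped. Of the rest, 34945 had 1 symbol, 932 several and 9160 none, per the platform annotation. By gene identifier 34741 matched RefSeq on GRCm38.p6 and took the symbol given there, whether or not it differed. The probe set with the highest mean stood for a gene, and the brightest 60% of 18193 genes were tested (mean log2 of at least 5.65). Probe sets were also tested singly. limma 3.58.1 in R 4.3.3 was fitted with 1 mean per group over all 10 arrays, and the same code was tested on simulated data. Precision is limited by the number of arrays.

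The labels give adjoining array numbers (5 and 6, 11 and 12, 13 and 14, 31 and 32, 43 and 44) to a preshocked and an unheated array of 1 line. Deviations from group means correlated within these pairs at 0.721, 0.376, 0.552, 0.37 and 0.37 over 10915 genes, and each array correlated best with its adjoining number. The last values are equal by construction, since each rescue-labelled group has 2 arrays, and count as 1. The pairs were used as a block in an alternative fit (duplicateCorrelation, statmod 1.5.0, between lines). Other alternatives were median centring, the deposited scaling, a floor of 16, no filter on dim genes (for single probe sets, which had none, the brightest 60%), the mean of probe sets, a trended robust variance, and leaving out each array or the arrays numbered 5 and 6. The genes described were all 8 members, up to 3 called genes of each other list, and the 5 genes most like Dnajb1 and Dnaja4. The members and lists were chosen with earlier results of these data known. Protein features were not analysed here.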

Additional observations from a re-analysis of the deposited data

Results flagged for a closer look

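For the Dnajb4 probe set 1439524_at, all 3 KO-labelled array pairs were higher after the preshock, by 0.27, 0.97 and 0.56, and both rescue-labelled pairs were lower, at -0.07 and -0.10. The difference of responses was -0.68 ± 0.90 (log2, SE; adjusted p = 1.0 over all probe sets, limma). The probe set is dim, at 35.2 to 66.5 on 8 of the 10 arrays, and neither of the other Dnajb4 probe sets split this way. The cause was not tested.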

How the results depend on the processing

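The mean responses of Dnajb1, Dnajb4 and Dnaja4 stayed called and positive under every alternative run, with adjusted p (limma) of at most 0.00314, 0.00442 and 0.0239; the calls in single lines that ended are given with their results. The rescue-labelled response of Dnaja4, not called, passed with the deposited scaling (adjusted p = 0.0218), the mean of probe sets (0.00505) and a trended robust variance (0.0455), within 0.00162 to 0.440 over all alternatives. A single-probe-set fit carries more tests and left-out arrays leave fewer samples, but the causes of these changes were not tested. With the replicate block, which pairs adjoining array numbers, 0 of the 23 probe sets were called in the KO-labelled, rescue-labelled and mean responses, and 5 genes in the mean response; it changed no other member's call. Median centring gave 0 probe sets in each response and 0 genes in the rescue-labelled response. In the KO-labelled response the probe sets called were 6 with a floor of 16, 8 with the brightest 60% of probe sets (22 of the 23 kept), 8 with a trended robust variance and 1 without the arrays numbered 5 and 6. In the rescue-labelled response they were 0 with the deposited scaling, 4 with a floor of 16, 5 with a trended robust variance and 0 without the arrays numbered 5 and 6. Leaving out 1 array gave 0 to 4 in the KO-labelled, 0 in each case in the rescue-labelled and 2 to 7 in the mean response. Calls over all probe sets were not counted under these alternatives, except with the block. Whether the members alone or all probe sets changed cannot be told from these counts.

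Values that changed sign belong to differences that were not called. For the preshock responses under median centring they were Dnaja2 0.0896 (KO-labelled), 0.0571 (rescue-labelled) and 0.0733 (mean) and Dnajb5 -0.0360 (rescue-labelled). Under the deposited scaling they were Dnaja2 0.0042, 0.0450 and 0.0246 and Dnajb5 -0.0480 (rescue-labelled), and with the mean of probe sets Dnaja2 0.0491 (KO-labelled) and 0.0221 (mean). Differences of responses turned for Dnaja2 (-0.0326) and Dnajb6 (-0.0409) under median centring and for Dnaja1 (-0.11), Dnaja2 (-0.0539) and Dnajb4 (-0.0976) with the mean of probe sets. Between the unheated lines median centring turned Dnaja1 (0.52), Dnaja2 (0.55), Dnajb1 (0.31), Dnajb4 (0.0066) and Dnajb5 (0.0635). The deposited scaling turned Dnaja2 (0.0091), the mean of probe sets Dnajb5 (0.14), and leaving out the arrays numbered 5 and 6 Dnaja4 (-0.11). Between the preshocked lines median centring turned Dnaja1 (0.54), Dnaja2 (0.52), Dnaja4 (0.38), Dnajb1 (0.61) and Dnajb4 (0.30). The deposited scaling turned Dnaja1 (0.0732), Dnaja2 (0.0499), Dnajb1 (0.14) and Dnajb5 (-0.23), and the mean of probe sets Dnaja4 (0.0941).

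Leaving out 1 array turned the KO-labelled response of Dnajb5 (-0.41 to 0.0174), the rescue-labelled responses of Dnaja2 (-0.14 to 0.0263) and Dnajb5 (-0.0516 to 0.0993) and the mean response of Dnajb5 (-0.19 to 0.0205). It turned the differences of responses of Dnaja1 (-0.0863 to 0.18), Dnaja2 (-0.0370 to 0.14) and Dnajb6 (-0.16 to 0.20), and the unheated line differences of Dnaja4 (-0.11 to 1.11) and Dnajb5 (-0.23 to 0.0150). Between the preshocked lines it turned Dnaja2 (-0.17 to 0.0091), Dnajb1 (-0.18 to 0.0827) and Dnajb5 (-0.13 to 0.30).

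Over all genes the KO-labelled, rescue-labelled and mean responses had 193, 39 and 482 calls. They had 999, 164 and 1901 with the block, 28, 7 and 127 with median centring, 28, 10 and 167 with no filter, and 101, 28 and 255 with the mean of probe sets. Without the arrays numbered 5 and 6 they had 135, 88 and 572, and with any 1 array left out 49 to 142, 10 to 59 and 185 to 493. The unheated and preshocked line comparisons had 46 and 37 calls, 95 and 63 without the arrays numbered 5 and 6, 10 and 6 with no filter, 20 and 9 with the mean of probe sets, 22 and 16 with the block, 32 and 22 with median centring, and 5 to 43 and 0 to 46 with any 1 array left out (5 without the array numbered 32, 0 without that numbered 31). The share of calls that were higher was 53.4%, 76.9% and 41.7%, and 89.3%, 100% and 62.2% with median centring and 46.6%, 75.6% and 30.8% with the deposited scaling. It was 85.7%, 90% and 58.7% with no filter, 36.4%, 48.8% and 33.7% with the block, and 61.4%, 85.7% and 55.7% with the mean of probe sets. With any 1 array left out it was 52.1% to 76.6%, 70% to 100% and 42.2% to 60.5%. Between the lines, unheated and preshocked, it was 26.1% and 29.7%, 59.4% and 68.2% with median centring, 15.9% and 21.6% with the deposited scaling, and 43.2% and 54.0% without the arrays numbered 5 and 6. With any 1 array left out it was 9.09% to 40.9% unheated and 6.67% to 50% preshocked.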
